A study of Mus musculus with 4 samples.

Results

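Genes of the uracil, mismatch, and end-joining repair steps of class switching were examined in cultured mouse spleen B cells. The 8 genes were Ung, Apex1, Msh6, Exo1, Trp53bp1, Xrcc5, Xrcc6, and Lig4, taken by name from the 31053 genes of the feature list, and all 8 were found. In class switching, repair enzymes that other tissues also use turn uracils in the switch regions of the heavy chain locus into breaks and join them. UNG excises the uracil and APE1 (Apex1) nicks the site it leaves. MSH6 takes part in binding the mismatch, and EXO1 resects from there. The protein of Trp53bp1 protects the broken ends, Ku (Xrcc5 and Xrcc6) binds them, and DNA ligase IV (Lig4) seals them. Several of these enzymes also act behind the replication fork of any dividing cell, UNG and MSH6 among them.

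The B cells came from spleens of WT C57BL/6 mice. Bregs-CpG (2 samples) were purified B cells held for 3 days with CpG B ODN 1668, a ligand of TLR9. Bregs-TLR (2 samples) had the same CpG culture and also received LPS, PMA, and ionomycin for the last 5 hours. No label ties a library number, 5 to 8, to a sample. The libraries were therefore never sorted into the 2 conditions, and values are given for each library without a test between libraries.

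After cells with under 1000 genes or at least 10% mitochondrial UMIs were left out, 18534 cells were kept, 4003 to 5621 per library. A UMI (unique molecular identifier) stands for 1 captured mRNA molecule, and the libraries held 44842982 to 63638158 UMIs in kept cells. Levels are UMIs of a gene per 1000000 UMIs of the cells named (CPM), with an exact Poisson 95% interval that covers counting error only. Libraries stood apart in pairs on measures other than the repair genes. The summed level of 3 B cell markers (Cd79a, Cd79b, and Ms4a1) was 6729, 6975, 1383, and 1377 CPM in libraries 5, 6, 7, and 8, and the median mitochondrial share was 7.22%, 7.18%, 4.61%, and 4.65%. The T cell markers summed to at most 0.788 CPM in any library with 3 of the 5 at 0, all 3 NK cell markers were at 0, and 2 or 3 of the 5 myeloid markers were at 0. Libraries shared at most 8 barcode sequences pairwise.

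Ung had the largest ratio between its highest and lowest library of the 8 genes and Apex1 the next. Ung was at 10.9 CPM (95% interval 9.98 to 11.9) in library 5, 10.4 CPM (9.56 to 11.3) in library 6, 45.9 CPM (44.3 to 47.6) in library 7, and 44.6 CPM (42.6 to 46.5) in library 8. Libraries 7 and 8 were high, libraries 5 and 6 were low, and the intervals within each of these pairs overlapped. Apex1 was at 48.1, 46.9, 116, and 113 CPM in the same order, again with libraries 7 and 8 above the other two. The mismatch genes had smaller ratios in the same order. Msh6 was at 13.8, 14.1, 25.8, and 23.3 CPM, and Exo1 at 4.66, 4.396, 9.13, and 8.56 CPM. Within each gene, the intervals of libraries 7 and 8 lay above those of libraries 5 and 6.

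The genes of end protection and end joining varied less between the 4 libraries. Trp53bp1 was at 12.0, 12.4, 14.7, and 13.9 CPM, where the interval of library 6 (11.5 to 13.4) overlapped that of library 8 (12.9 to 15.1) and not that of library 7 (13.8 to 15.7). Xrcc5 was at 10.1, 10.4, 11.4, and 12.3 CPM, where each library's interval overlapped that of its neighbor in the order, while that of library 8 lay above that of library 5. Xrcc6 was at 32.1, 33.5, 38.6, and 35.0 CPM, where the interval of library 7 lay above those of the other libraries. Small differences of this kind depend on which UMIs are counted in the total. Lig4, the least detected of the 8, was at 3.35, 3.52, 2.92, and 2.69 CPM on 150, 182, 186, and 123 UMIs. It was the only one of the 8 with its lowest values in libraries 7 and 8, and the intervals of libraries 5 (2.83 to 3.92) and 7 (2.52 to 3.37) overlapped.

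The shares of cells with an Ung UMI went the same way as its levels. An Ung UMI was found in 7.63%, 7.06%, 28.3%, and 27.3% of cells of libraries 5, 6, 7, and 8. When each cell was thinned to 3000 UMIs, which left out 51 shallower cells, the shares were 2.41%, 2.295%, 10.6%, and 9.46%. No cell type that should lack the transcript was numerous enough to give a background share, and for comparison Cd3e, a T cell gene, had no UMI in any kept cell.

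**Figure D1:**
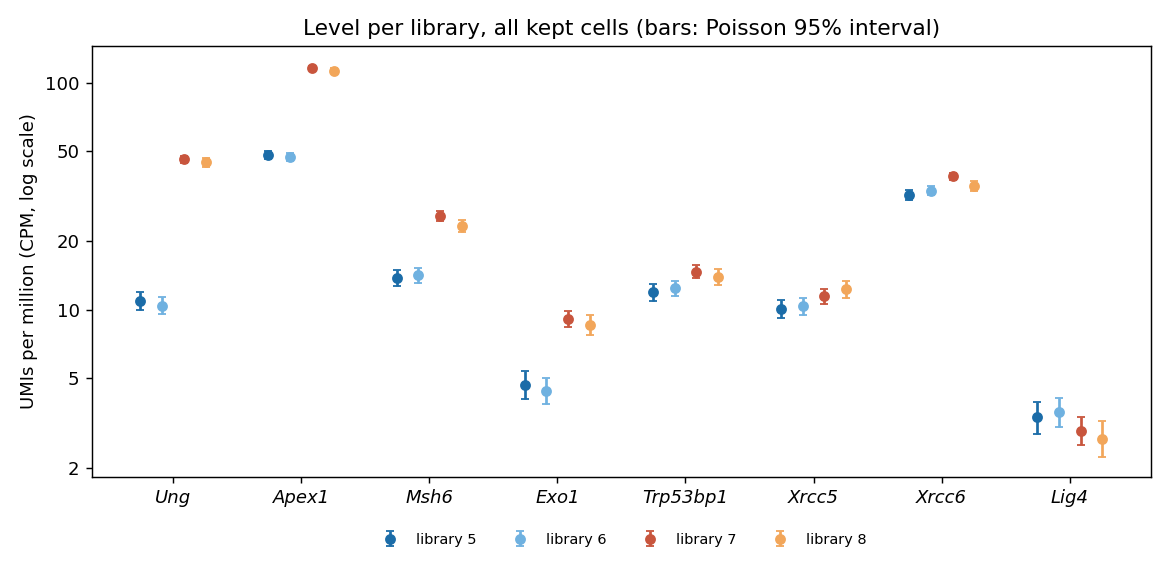
Level of the 8 repair genes (y axis, CPM on a log scale) in all kept cells of libraries 5 to 8, with points for the level and bars for the exact Poisson 95% interval. Ung, Apex1, Msh6, and Exo1 sit higher in libraries 7 and 8, and the end-joining genes differ less.

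Cells were then divided, within each library, by whether a UMI of Mcm3, a subunit of the replicative helicase, and of Mki67, a marker of dividing cells that peaks toward mitosis, was detected. Cells with neither made up 76.1%, 74.2%, 50.5%, and 51.8% of libraries 5, 6, 7, and 8. Cells with only Mcm3 made up 14.4%, 14.7%, 42.3%, and 40.3%, cells with only Mki67 2.93%, 3.54%, 0.765%, and 1.12%, and cells with both 6.48%, 7.49%, 6.48%, and 6.77%. UMIs were summed per library and class, and all 10823 genes that passed the filter on low counts, other than Mcm3 and Mki67, were tested in 1 edgeR quasi-likelihood fit of the 16 sums with library as a block. All 8 repair genes passed that filter. In this fit each class is compared with another class of the same library, so the mix of classes between libraries does not enter. The first 3 comparisons all use the cells with neither.

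Ung rose strongly in Mcm3-positive cells and not in cells with only Mki67. It was at 4.22, 3.95, 14.3, and 14.5 CPM in cells with neither in libraries 5, 6, 7, and 8, and at 24.9, 21.5, 69.9, and 71.4 CPM in cells with only Mcm3. Every library was higher in the second class than in the first, also when the lowest of the second was set against the highest of the first. The log2 fold change was 2.35 ± 0.09 (SE, adjusted p = 2.80e-11). In cells with both it was at 26.7, 27.0, 69.2, and 55.5 CPM, a log2 fold change of 2.28 ± 0.10 against cells with neither (adjusted p = 2.14e-12). Ung in cells with only Mki67 was at 1.95, 1.94, 11.2, and 3.50 CPM, below the cells with neither in each library, on 3, 4, 6, and 2 UMIs. That difference, a log2 fold change of -1.13 ± 0.33, had an adjusted p of 0.0377 and did not pass under 8 of 10 alternatives, the removal of any 1 library included. Against cells with only Mcm3, Ung in cells with only Mki67 fell by 3.48 ± 0.25 on the log2 scale (adjusted p = 2.16e-08).

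Among cells with neither, Ung in library 7 (12.9 to 15.8 CPM) and library 8 (12.8 to 16.3) lay above library 5 (3.51 to 5.04) and library 6 (3.30 to 4.69), so libraries 7 and 8 were higher also within this class. In cells with only Mki67, on few UMIs, the intervals of Ung overlapped between libraries. Libraries 7 and 8 were likewise higher for Apex1 among cells with neither, at 43.8, 42.5, 113, and 109.9 CPM. Mcm2, which encodes another subunit of the helicase, was also higher there in these cells, at 8.65, 9.39, 19.7, and 17.1 CPM. The class means only that no UMI of Mcm3 or Mki67 was captured. Whether its cells were alike between libraries was not tested.

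Msh6 and Exo1 also rose with Mcm3 detection. Msh6 was at 10.4, 9.70, 14.5, and 14.9 CPM in cells with neither, at 17.3, 16.7, 32.7, and 29.1 CPM in cells with only Mcm3, and at 25.6, 32.0, 42.3, and 33.5 CPM in cells with both. The log2 fold changes were 0.92 ± 0.10 (adjusted p = 4.62e-06) for only Mcm3 and 1.35 ± 0.10 (adjusted p = 8.00e-09) for both. Neither class overlapped with the cells with neither. Msh6 in cells with only Mki67 was at 12.3, 6.78, 13.0, and 14.0 CPM, which was not told apart from cells with neither (log2 fold change -0.20 ± 0.23, adjusted p = 0.685) and was 1.13 ± 0.22 lower on the log2 scale than cells with only Mcm3 (a log2 fold change of -1.13, adjusted p = 0.00246). With cells thinned to 3000 UMIs this last difference was -0.49 and no longer passed (adjusted p = 0.490).

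Exo1 had the largest fold change of the 8 genes and, unlike Ung and Msh6, was also higher in cells with only Mki67. It was at 0.686, 0.581, 1.68, and 1.18 CPM in cells with neither and at 23.9, 21.8, 36.8, and 29.8 CPM in cells with both, a log2 fold change of 4.71 ± 0.15 (adjusted p = 3.55e-14). In cells with only Mcm3 it was at 4.55, 3.56, 9.82, and 10.3 CPM (log2 fold change 2.76 ± 0.17, adjusted p = 3.60e-09). Exo1 in cells with only Mki67 was at 5.19, 4.36, 13.0, and 15.7 CPM on 8, 9, 7, and 9 UMIs, a log2 fold change of 2.95 ± 0.38 (adjusted p = 3.03e-05). Cells with only Mki67 and cells with only Mcm3 were not told apart for Exo1 (log2 fold change 0.19 ± 0.30, adjusted p = 0.792).

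Apex1, the abasic site nuclease, showed less of this pattern, and its rise with Mcm3 was larger in libraries 5 and 6 than in libraries 7 and 8. In cells with only Mcm3 it was at 59.2, 60.8, 123, and 121.6 CPM, against 43.8, 42.5, 113, and 109.9 CPM in cells with neither. The Poisson intervals of these classes did not overlap in any library, but the log2 fold change of 0.26 ± 0.09 did not pass (adjusted p = 0.130). It passed where detection took 2 UMIs (0.47, adjusted p = 0.0256) and without a filter on low counts (0.28, adjusted p = 0.0380). In cells with both it was at 58.1, 54.7, 99.9, and 92.5 CPM, above the cells with neither in libraries 5 and 6 and below them in libraries 7 and 8, with a log2 fold change of -0.02 ± 0.09. Apex1 in cells with only Mki67 was at 31.2, 25.2, 96.8, and 82.2 CPM and fell by 0.58 ± 0.14 on the log2 scale (adjusted p = 0.00946), a call that was lost without library 5 (adjusted p = 0.0505), without library 6 (adjusted p = 0.0787), and under 2 other alternatives. Apex1 was also lower in these cells than in cells with only Mcm3 (log2 fold change -0.84 ± 0.14, adjusted p = 4.66e-04).

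**Figure D2:**
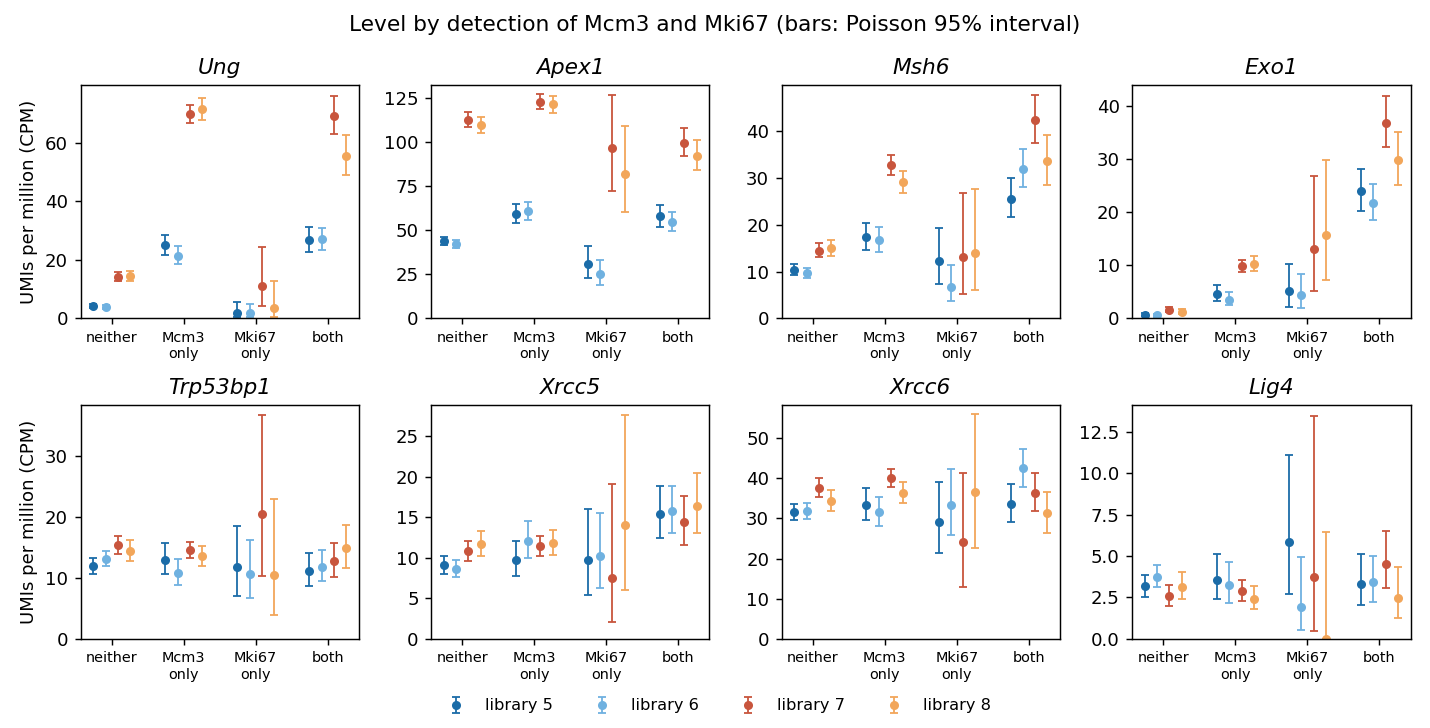
Level of each repair gene (y axis, CPM) in cells with neither Mcm3 nor Mki67, only Mcm3, only Mki67, or both, for libraries 5 to 8, with points for the level and bars for the exact Poisson 95% interval. Ung is high in both Mcm3-positive classes and low in cells with only Mki67, and Exo1 is highest in cells with both. Taken over all libraries, the levels of the classes overlap for Trp53bp1, Xrcc6, and Lig4. For Xrcc6 in library 6, the bar of cells with both lies above those of cells with neither and with only Mcm3.

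The Ku genes differed from each other. Xrcc5 was at 9.06, 8.63, 10.8, and 11.7 CPM in cells with neither and at 15.4, 15.7, 14.4, and 16.4 CPM in cells with both, where the classes did not overlap, and rose by 0.54 ± 0.09 on the log2 scale (adjusted p = 1.20e-04). Xrcc6 was at 31.5, 31.9, 37.7, and 34.5 CPM and at 33.7, 42.5, 36.3, and 31.2 CPM in the same classes, which overlapped (log2 fold change -0.01 ± 0.08, adjusted p = 0.969). The ratio of Xrcc6 to Xrcc5 UMIs was 3.48, 3.70, 3.49, and 2.96 in cells with neither and 2.18, 2.70, 2.52, and 1.90 in cells with both. In every library the ratio was lower in cells with both, and the exact conditional 95% intervals did not overlap in libraries 5 (3.03 to 4.01 and 1.70 to 2.82) and 8 (2.54 to 3.46 and 1.44 to 2.52). For cells with only Mcm3 or only Mki67, neither Ku gene passed the test.

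Trp53bp1 and Lig4 passed in none of the 4 comparisons. Trp53bp1 was at 11.9, 13.1, 15.3, and 14.3 CPM in cells with neither and at 11.1, 11.8, 12.7, and 14.8 CPM in cells with both, with overlapping classes (log2 fold change -0.22 ± 0.10, adjusted p = 0.0766). Lig4 was at 3.16, 3.73, 2.58, and 3.13 CPM and at 3.32, 3.41, 4.54, and 2.47 CPM in these classes (log2 fold change 0.03 ± 0.22, adjusted p = 0.943). In cells with only Mki67, Lig4 had 9, 4, 2, and 0 UMIs, and a difference was not detectable at this depth.

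In counts, 3 of the 8 repair genes were called higher in cells with only Mcm3 than in cells with neither and 0 lower, where 3.37% of all genes tested were called higher and 0.656% lower. For cells with both, 4 were called higher and 0 lower, against 18.0% and 21.5% of all genes. For cells with only Mki67, 1 was called higher and 2 lower, against 4.93% and 5.29%. Between cells with only Mki67 and cells with only Mcm3, 0 were higher and 3 (Ung, Apex1, and Msh6) lower, against 4.07% and 5.03%. The median log2 fold change of the 8 genes was 0.20, -0.19, 0.28, and -0.19 in these comparisons in turn (only Mcm3, only Mki67, both, and only Mki67 against only Mcm3), and that of all genes tested was -0.02, -0.06, -0.06, and -0.04. Detection of a UMI depends on depth, and the median UMIs per cell moved with the classes, from 8175 to 9230 in cells with neither to 16171 to 19299 in cells with both. With every cell thinned to 3000 UMIs before the classes were formed, Ung, Msh6, and Exo1 were again called higher both in cells with only Mcm3 and in cells with both, while Xrcc5 was not tested. The log2 fold changes were then 2.06 and 1.25 for Ung, 0.87 and 1.43 for Msh6, and 2.27 and 4.29 for Exo1, so that of Ung in cells with both was lower than without thinning. In library 5 a Msh6 UMI was found in 2 of 71 thinned cells with both (2.82%) and in 118 of 3704 with neither (3.19%). In libraries 6, 7, and 8 these shares were 14.7%, 18.1%, and 8.45% with both and 2.95%, 5.84%, and 5.17% with neither. For Xrcc5, the thinned shares with both were 2.82%, 3.67%, 5.32%, and 2.82% in libraries 5, 6, 7, and 8. They rested on 2, 4, 5, and 2 cells. With neither they were 2.40%, 2.78%, 3.20%, and 3.57%, so library 8 went the other way.

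**Figure D3:**
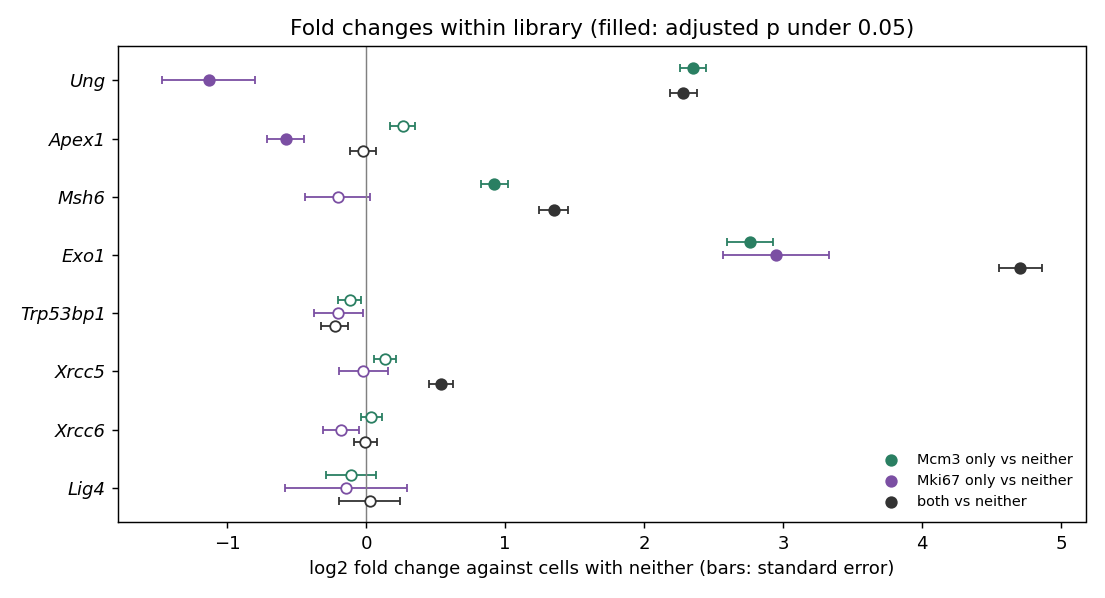
Log2 fold change (x axis) of each repair gene in cells with only Mcm3, only Mki67, or both, each against cells with neither in the same library, from the edgeR fit of 16 sums. Points are the estimate, bars the standard error, and filled points have an adjusted p under 0.05, among them Ung, Msh6, and Exo1 for only Mcm3.

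Among cells without a Mki67 UMI, the levels were also followed along the number of Mcm3 UMIs per cell, a view chosen after the class values were seen. Depth moved with these steps. The median UMIs per cell were 8175, 8266, 9230, and 9000 at 0 Mcm3 UMIs in libraries 5, 6, 7, and 8. At 5 or more they were 15558, 15931.5, 13619.5, and 13510, and this view was not repeated with thinned cells. Ung in library 5 was at 4.22 CPM with 0 Mcm3 UMIs, 7.03 CPM with 1, 26.7 CPM with 2, 53.1 CPM with 3 to 4, and 89.8 CPM with 5 or more. In library 6 it was at 3.95, 7.14, 18.4, 69.0, and 73.6 CPM, in library 7 at 14.3, 28.9, 65.5, 85.4, and 111.5 CPM, and in library 8 at 14.5, 33.0, 59.7, 91.1, and 112.5 CPM. The level went up at each step in all 4 libraries. At 5 or more, the interval of library 5 (71.2 to 112) overlapped that of library 7 (104.5 to 119), while that of library 6 (57.2 to 93.3) lay below it. Mcm2, another subunit of the same helicase, went up alike, from 8.65, 9.39, 19.7, and 17.1 CPM to 108.9, 94.2, 111.5, and 97.7 CPM.

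Msh6 and Exo1 were higher at 5 or more Mcm3 UMIs than at 0 in every library. Both went up at every step in libraries 7 and 8, as did Exo1 in library 6, while Msh6 in libraries 5 and 6 and Exo1 in library 5 did not. In libraries 7 and 8, Msh6 went from 14.5 and 14.9 CPM to 48.5 and 41.1 CPM, and Exo1 from 1.68 and 1.18 CPM to 20.8 and 18.3 CPM.

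Apex1 differed between libraries along the same steps. In libraries 5 and 6 it went from 43.8 and 42.5 CPM at 0 Mcm3 UMIs to 103 and 92.0 CPM at 5 or more, while in libraries 7 and 8 it went from 113 and 109.9 CPM to 127 and 129 CPM. Apex1 was thus far apart between the libraries in cells with few Mcm3 UMIs and closer in those with many. The difference between libraries was not tested, since none is known to be a replicate of another. Cells with 5 or more Mcm3 UMIs numbered 51 and 46 in libraries 5 and 6 and 544 and 341 in libraries 7 and 8. Xrcc6 stayed between 28.1 and 44.4 CPM and Lig4 between 1.08 and 5.62 CPM over all steps and libraries.

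**Figure D4:**
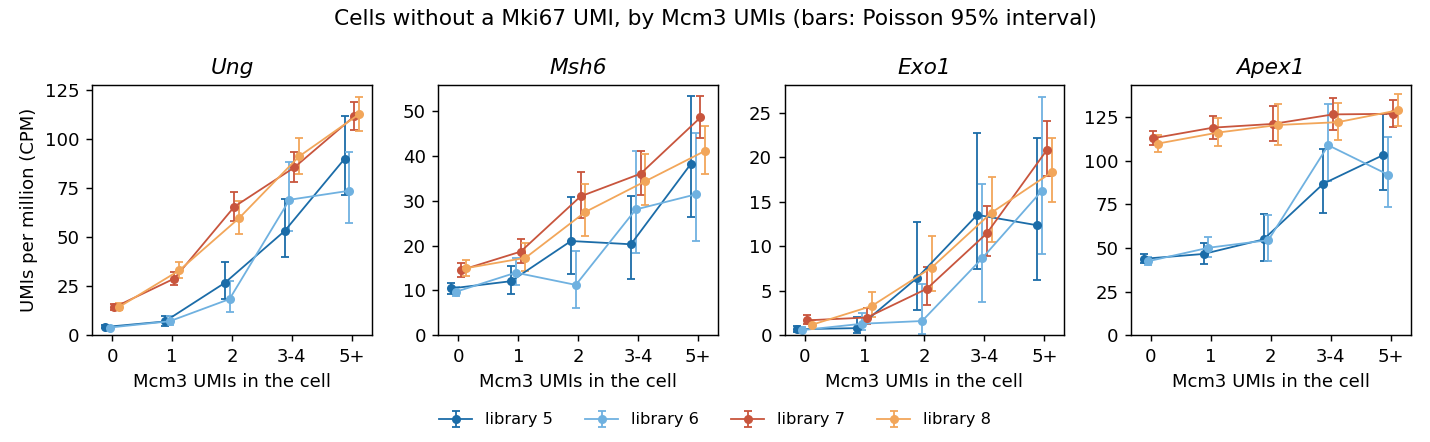
Level of Ung, Msh6, Exo1, and Apex1 (y axis, CPM) by the number of Mcm3 UMIs in the cell (x axis), for cells without a Mki67 UMI in libraries 5 to 8. Points are levels and bars exact Poisson 95% intervals, and Ung goes up at every step in each library.

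The 8 genes lie apart in the genome, and all are protein-coding in GENCODE vM21 (GRCm38). Ung (ENSMUSG00000029591) lies on chromosome 5 from 114130386 to 114139323, and Apex1 (ENSMUSG00000035960) on chromosome 14 from 50924968 to 50927139. Msh6 (ENSMUSG00000005370) lies on chromosome 17 from 87975062 to 87990892, and Exo1 (ENSMUSG00000039748) on chromosome 1 from 175880581 to 175913489. Trp53bp1 (ENSMUSG00000043909) is on chromosome 2 from 121193281 to 121271407, Xrcc5 (ENSMUSG00000026187) on chromosome 1 from 72307421 to 72394952, Xrcc6 (ENSMUSG00000022471) on chromosome 15 from 81987835 to 82040085, and Lig4 (ENSMUSG00000049717) on chromosome 8 from 9969049 to 9977686.

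Since Ung and Msh6 moved with Mcm3, the 250 bases before each RefSeq start (GRCm38.p6) were searched on both strands for the 4 spellings of the E2F motif (TTTCCCGC, TTTCGCGC, TTTGCCGC, and TTTGGCGC), for CCAAT, and for the motif TTTGAA. RefSeq windows matched 7 of the 8 genes, in 8 windows, and Exo1 was not searched. An E2F spelling was found in the window of 1 gene, Xrcc6, which was not called in any class comparison, and not in those of Ung or Msh6. Of all 32851 windows, 1.86% held one. CCAAT was found for Apex1, Msh6, and Xrcc5 (33.8% of all windows), and TTTGAA for none of the 7 genes (15.99%). A match is only a run of letters, and a missing match says nothing about the factor. Stretches before the start of Ung and Msh6, and the bases around the match of Xrcc6, are shown, with the letters found in capitals on whichever strand they lie. They cover only part of the 250 bases searched, so the lack of letters in a whole window cannot be seen from them.

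Ung, 80 bases ending 69 bases before the RefSeq start with none of the letters, chr5:114130286-114130365, plus strand: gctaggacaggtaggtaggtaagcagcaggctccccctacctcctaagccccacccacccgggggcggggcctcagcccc

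Msh6, 80 bases before the start with CCAAT on the minus strand, chr17:87974970-87975049, plus strand: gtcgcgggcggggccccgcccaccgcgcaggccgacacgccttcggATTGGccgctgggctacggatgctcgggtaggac

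Xrcc6, 30 bases with TTTCCCGC on the minus strand, chr15:82016312-82016341, plus strand, overlapping 1 annotated GENCODE exon of Xrcc6: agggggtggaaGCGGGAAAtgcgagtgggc

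The other genes of the pathway were taken from a list of 32 (base excision, mismatch repair, break response, and end joining among their roles), all of which were tested between the classes. The list was chosen with earlier results of these data known, so counts over it are a description only. In cells with only Mcm3, 9 of the 32 rose and 0 fell, against 3.37% and 0.656% of all genes tested. Among them were Pcna, the sliding clamp (log2 fold change 0.99 ± 0.15, adjusted p = 2.47e-04), and Lig1, the replicative ligase (2.98 ± 0.13, adjusted p = 5.66e-11). The 9 ranged from 0.36 (Pms2) to 2.98 (Lig1), with the break response genes Rif1 (0.52), Rnf168 (0.53), and Paxip1 (0.56) in between. In cells with both, 17 rose and 4 fell, against 18.0% and 21.5% of all genes, so the share of the list that fell was below that of all genes. The 4 that fell were Smug1, which like Ung encodes a uracil glycosylase (log2 fold change -0.48 ± 0.13, adjusted p = 0.00810), Dclre1c, which encodes Artemis (-0.46), Paxx (-0.28), and Lig3 (-0.27). Lig3 went from 35.5 and 32.3 CPM with neither to 26.6 and 25.1 CPM with both in libraries 7 and 8. In libraries 5 and 6 it did not fall, at 12.1 and 13.1 CPM with neither and 12.4 and 14.4 CPM with both. Of the end-joining partners, Prkdc, the catalytic subunit of DNA-PK, rose in cells with both (0.59 ± 0.11, adjusted p = 3.78e-04), while Xrcc4, the partner of Lig4, did not pass (-0.22, adjusted p = 0.0637). In cells with only Mki67, 6 rose and 0 fell, against 4.93% and 5.29% of all genes, among them Lig1 (2.14) and H2afx, the histone whose phosphorylation marks breaks (2.39). Between cells with only Mki67 and cells with only Mcm3, 2 of the 32 were higher and 2 lower, near the 4.07% and 5.03% of all genes.

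Cells with switched constant-region transcripts were compared with cells that had only IgM and IgD transcripts. Cells were called switched with at least 3 UMIs of Ighg1, Ighg2b, Ighg2c, Ighg3, Igha, and Ighe together and more of these than of Ighm and Ighd, and unswitched with none of these and at least 3 UMIs of Ighm and Ighd. Switched cells made up 0.524%, 0.339%, 7.93%, and 7.92% of libraries 5, 6, 7, and 8. Unswitched cells made up 14.4%, 15.4%, 22.3%, and 23.7%, and all other kept cells were in neither class. The classes rest on UMIs of constant-region genes alone, and whether the heavy chain locus of a cell had switched was not tested. Library 6 had 16 switched cells, under the minimum of 20, and was left out, so the fit held 6 sums from 3 libraries. Of the 8 repair genes, 1, Ung, was called higher in switched cells and 0 lower, against 2.69% and 5.34% of the 9757 genes tested. Ung was at 60.7 and 49.2 CPM in switched and at 36.4 and 40.5 CPM in unswitched cells of libraries 7 and 8, and at 0 UMIs in the 22 switched cells of library 5 against 7.07 CPM in its unswitched cells. The log2 fold change was 0.51 ± 0.10 (adjusted p = 3.07e-05), but the call was lost without library 7 (0.19, adjusted p = 1.00), without library 8 (0.61, adjusted p = 0.939), and with the DESeq2 test (0.38, adjusted p = 1.00). Mcm3 itself was at 159.6 and 146 CPM in switched and at 122 and 112 CPM in unswitched cells of libraries 7 and 8. In this comparison 7 of 8 replication genes of a list were called higher and 4 of 6 mitosis genes lower, and their part in the result was not tested. Of the pathway list, 31 genes were tested here, and Parp1 (0.34) and Rad50 (0.42) were called higher and none lower. Of all genes, 262 were called higher in this fit, 4 without library 7, 9 without library 8, 621 without library 5, and 2 with the DESeq2 test. Whether the calls of the listed genes hold under these alternatives was not examined.

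Cells with at least 50 UMIs of Jchain, a gene of antibody-secreting cells, numbered 12, 21, 34, and 10 in libraries 5, 6, 7, and 8, a group added after values were seen. Apex1 was at 0, 3.43, 56.8, and 61.6 CPM in them, on 0, 1, 32, and 12 UMIs, and at 48.3, 47.1, 117, and 113 CPM in all other cells. In each library the Poisson interval of Apex1 in the Jchain cells lay below that of the other cells. The total UMIs include antibody transcripts, and levels without them were not computed for this group. By cells, library 8 had 12 Apex1 UMIs in 10 Jchain cells and 5149 in the 3993 others. Library 7 had 32 in 34 Jchain cells and 7367 in the 5587 others. Library 5 had 0 in 12 and 2157 in the 4184 others, and library 6 had 1 in 21 and 2419 in the 4693 others. Not every gene was lower in each library. Xrcc6 was at 51.4 against 33.4 CPM in library 6, with overlapping intervals, and at 12.4 against 38.8 CPM in library 7. The intervals of Ung in these cells, such as 14.9 to 43.9 CPM in library 7 against 44.4 to 47.8 CPM in its other cells, overlapped those of the other cells in libraries 5, 6, and 8 and not in library 7.

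The genes whose levels over the 16 sums of library and class were most like each repair gene were listed from 4727 genes of at least 20 CPM, as Pearson correlations of log2(CPM + 1). The 16 points share 4 libraries and the class definitions, so they are not independent. For Ung the closest were Mcm2 (r = 0.906), Arl6ip6 (0.898), and Mcmbp (0.892). For Exo1 they were Rfc5 (0.979), Nsd2 (0.979), and Gmnn (0.977), and for Msh6 Syce2 (0.951), Mcm6 (0.943), and Dtl (0.939). For Apex1 they were C1qbp (0.985), Prmt3 (0.978), and Fam241a (0.978). Xrcc5 was closest to Gins4 (0.944), B230219D22Rik (0.892), and Fdx1 (0.881), and Xrcc6 to Mfsd1 (0.891), Scamp3 (0.812), and Ap3s2 (0.805). Trp53bp1 was closest to Akt1s1 (0.924), Brms1 (0.894), and Snx15 (0.892), and Lig4 to Cnppd1 (0.883), Rad17 (0.856), and Hes6 (0.855).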

How the data were processed

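The deposited matrix holds the authors' UMI counts per gene and cell from 10x Genomics Chromium Single Cell 3' v3 libraries, made with bcl2fastq and Cell Ranger (version 3.1.0) on mouse mm10 with Ensembl 93 genes and combined with CellRanger aggr, which evens depth between libraries. The authors' SAVER-X imputation is not in these counts. Of 35989 matrix columns, the last ones, as many as there are barcodes, were read as those barcodes in order, which left 16069 earlier columns unread; no file states this order. Of the barcodes, 559 had under 1000 genes and 1110 had at least 10% mitochondrial UMIs. Doublets were not removed. The levels by number of Mcm3 UMIs and the Jchain group were added after values were seen. The repair genes and gene lists were chosen with earlier results of these data known.

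UMIs were summed per library and class and tested in edgeR (version 4.0.16, R version 4.3.3) with TMM scaling, filterByExpr, library as a block, and Benjamini-Hochberg adjustment over all genes tested, at a threshold of 0.05. p-values are two-sided, and the block takes out differences in level between libraries. In the comparisons by Mcm3 and Mki67 they rest on how class differences vary between libraries, with this spread shared in part over genes. For switched against unswitched cells, the spread was taken almost wholly from all genes together. A gene's own variation between the 3 libraries hardly entered those p-values. The labels do not describe the cultures of the libraries further. The fit was tried on simulated counts for cells with only Mcm3 against cells with neither. These held 200 changed genes and no difference between libraries and classes otherwise, apart from depth. The changed genes were drawn from those with at least 200 UMIs over all sums, and all genes had the same spread beyond counting error. Recovery for genes with fewer UMIs or more spread was therefore not measured. The fit recovered 98.1% of the smaller and 100% of the larger changes, with 1.98% of calls false. The other comparisons were not simulated. Intervals were computed in SciPy (version 1.17.1) and cover counting error only. Genes named were the 8, genes of the pathway list that are partners or passed the threshold, and the 3 most alike genes for each. Some genes of the lists are not reported here. Alternatives were DESeq2 (version 1.42.0) as test or scaling, no filter, 500 genes per cell, thinning to 3000 UMIs, detection at 2 UMIs, isotype classes at 10 UMIs, and each library left out.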

Additional observations from a re-analysis of the deposited data

How the results depend on the processing

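No paired analysis was possible because no label ties a library number to a sample, so replicate numbers could not pair the 2 conditions, while the class comparisons had library as a block. The calls of Ung, Msh6, and Exo1 as higher in cells with only Mcm3, and of these and Xrcc5 in cells with both, passed under each alternative in which they were fitted, with log2 fold changes of Ung from 2.06 to 3.04 and from 1.25 to 2.42. Xrcc5 was not fitted with thinning, so its call was not checked against depth in this way. The 2 genes called lower in cells with only Mki67 became 1 with DESeq2 size factors in edgeR, 1 with the DESeq2 test, 0 with thinning, and 0 with detection at 2 UMIs, and 0 to 1 with a library left out. By construction, thinning moves cells with few Mcm3 UMIs into the classes without Mcm3.

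With a library left out, genes called higher and lower numbered 211 to 316 and 10 to 32 for only Mcm3 (365 and 71 with all libraries), 394 to 440 and 187 to 290 for only Mki67 (534 and 573), 1475 to 1811 and 1466 to 1810 for both (1946 and 2324), and 322 to 353 and 231 to 299 for only Mki67 against only Mcm3 (440 and 544). Without a filter, genes called lower were 148 for only Mcm3, 936 for only Mki67, and 1040 for only Mki67 against only Mcm3. With thinning, they were 35 for only Mcm3 and 166 for only Mki67 against only Mcm3, and cells with both had 663 higher and 554 lower. With detection at 2 UMIs, cells with only Mcm3 had 700 higher and 299 lower.

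For switched against unswitched cells (262 higher and 521 lower), leaving out a library gave 4 to 621 higher and 53 to 732 lower, and 0 to 1 repair genes higher. The lowest values came without library 7 and the highest without library 5. DESeq2 gave 2 higher and 28 lower genes and 0 repair genes higher (352 genes at an unadjusted p under 0.05). Isotype classes at 10 UMIs, which left 2 libraries, gave 510 higher genes and 2 repair genes higher. The cause was not tested. Taking UMIs of mitochondrial, ribosomal, and antibody genes out of the total raises the levels of all 8 genes by construction. Ung was then at 20.6, 19.3, 75.7, and 75.7 CPM. Cells with only Mki67, with as few as 43 in a library, limit what could be detected there.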
